A study of Mus musculus with 4 samples.

Results

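Semaphorins are secreted or membrane-bound guidance proteins, plexins are their main receptors, and neuropilins are coreceptors that bind secreted class 3 semaphorins and vascular endothelial growth factors. The genes described here are those whose symbols begin with Sema, Plxn or Nrp followed by a digit, or by a letter from a to d and a digit, in the deposited gene list. Of 31053 genes, 31 met this rule, namely 20 semaphorins, 9 plexins and 2 neuropilins. A further 3 symbols of antisense transcripts of Plxna4 share the beginning and were not counted. All 31 genes had at least 1 unique molecular identifier (UMI, 1 counted RNA molecule) in the cells used.

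In the immune system, semaphorins of class 4, 6 and 7 act as membrane ligands between T cells, dendritic cells and macrophages. Sema4d (CD100) and Sema4a modulate T cell activation, Sema7a is held in the membrane by a lipid anchor and binds Plxnc1 and the integrin of Itga1 and Itgb1, and Sema6d is a ligand of Plxna1, a receptor that works with Trem2 and Tyrobp in myeloid cells. Class 3 semaphorins mostly come from stromal and epithelial cells, and Nrp1 marks many regulatory T cells that arise in the mouse thymus.

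CD45+ DAPI- cells were sorted after collagenase digestion from 2 control skins and 2 skin tumors of C57BL/6 mice, and each gave 1 library of droplet-captured single cells, read at the 3' end of the RNA. Female and male mice aged 8 to 10 weeks received cells of the 2323 line under the skin of the flank, and the tumors were taken 2 weeks later. The control mice had not been inoculated, and their age and sex are not given in the sources used here. The line came from a tumor graft with K14rtTA, tetOCre and P53-/- among its alleles, in which a keratin 14 promoter drives the doxycycline-dependent activator, so the tumor group stands for 1 line. In this text, the values of a group are given for replicate 1 and then replicate 2.

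The 4 libraries held 2258 to 5176 deposited cells and 34893543 to 73904272 UMIs, and 1954 to 4555 cells were used after filtering and doublet removal. Cell classes were set by gates on marker genes, and 53.63% to 69.55% of the used cells met 1 of 15 gates. Names such as NK-like state the gate a cell met. Ptprc, which encodes CD45, was found in every gated class. Any pair of libraries shared 1 to 7 cell barcodes. Langerhans-like cells numbered 383 and 357 in control skin and 0 and 6 in tumors, and dendritic epidermal T cell-like (DETC-like) cells numbered 460 and 567 in control skin and 8 and 12 in tumors. C1q-high macrophage-like cells numbered 71 and 216 in control skin and 1932 and 700 in tumors. Levels below are UMIs of the gene per 10,000 UMIs of all genes, summed over the cells of a class in a library, so they measure RNA within the class. In values over all cells, fewer cells of a type and less RNA per cell cannot be told apart.

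Sema4d and Plxnc1 had enough UMIs to be tested in 10 classes each, while Sema6d was mainly a gene of innate and cytotoxic lymphocytes of control skin. Mature DC-like cells of control skin also held Sema6d, at 2.64 and 1.07 UMIs per 10,000. Nrp2 was highest in mature DC-like, C1q-high macrophage-like and control cDC2-like cells, and Nrp1 was highest in mast-like cells of control skin and in CD4 T-like cells of tumors. The secreted semaphorins Sema3a to Sema3g stayed at or under 0.477 UMIs per 10,000 in every gated class with at least 10 cells, and that highest value was Sema3e in mast-like cells of control replicate 2, from 7 UMIs. In all, 14 members reached the test in no class because of low counts: the 7 class 3 semaphorins, Sema4g, Sema5a, Sema5b, Sema6c, Plxna3, Plxnb1 and Plxnb3. The other 17 were tested in at least 1 class.

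**Figure D1:**
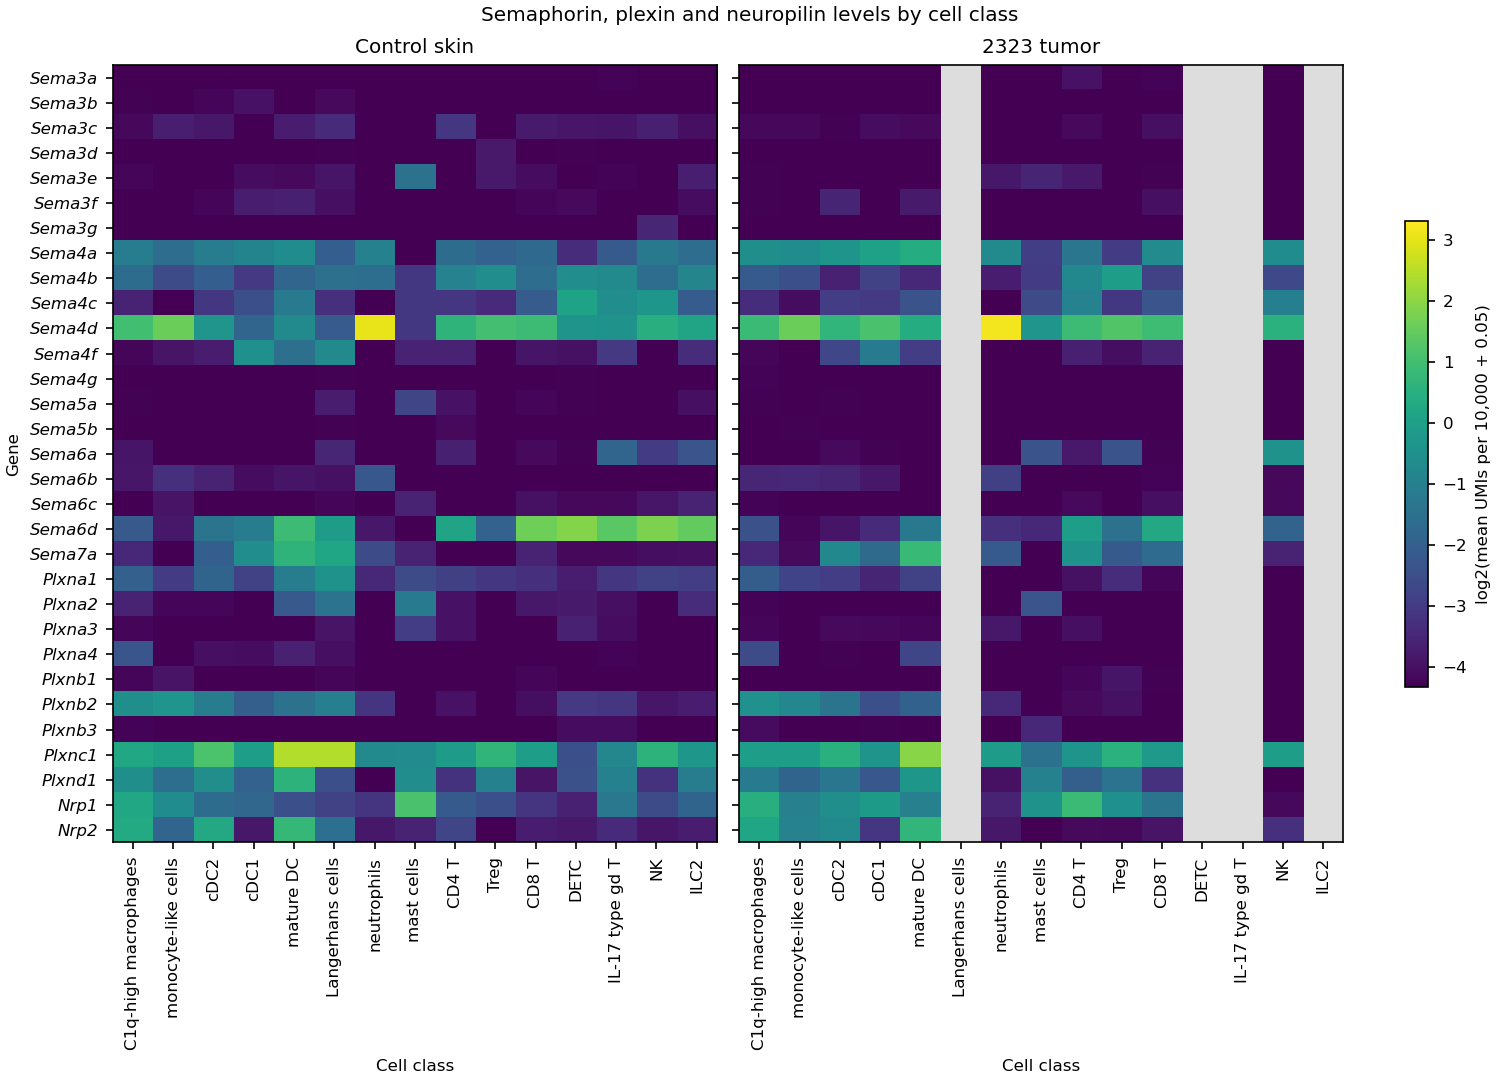
Mean level of each of the 31 genes (rows) in each cell class (columns), as log2 of UMIs per 10,000 plus 0.05, over the 2 libraries of control skin (left) and of tumor (right). Grey columns mark classes with under 10 cells in a library of the group. Sema4d in neutrophil-like cells and Plxnc1 in Langerhans-like and mature DC-like cells stand out, and Sema6d is bright in the DETC-like, NK-like, CD8 T-like, IL-17 type γδ T-like and ILC2-like columns of control skin and dim in Treg-like cells.

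To ask which of these genes differed between tumor and control skin within a cell type, counts were summed per library and tested in the 11 classes with at least 10 cells in each library, with a call at an adjusted p under 0.05. The 4 remaining classes, Langerhans-like, DETC-like, IL-17 type γδ T-like and ILC2-like, had too few tumor cells and are described for control skin. Of 90 tests of a member in a class, 19 gave a call, 8 higher and 11 lower in tumor. These concerned 10 genes in 7 classes. Members reach the test only with enough UMIs in a group, so the counts below describe the genes tested and not all 31.

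The calls lay in dendritic and lymphoid classes. In cDC2-like cells, 13 members were tested, and 1 was higher and 5 were lower, where 4.88% of all genes tested were higher and 6.84% lower. In cDC1-like cells, 8 were tested and 1 was lower, and 0.602% of all genes were higher and 1.4% lower. In mature DC-like cells, 13 were tested and 2 were lower, against 2.7% of all genes higher and 3.4% lower. That class held the Langerhans cell gene Cd207 in control skin and not in tumors, as described below. In CD4 T-like cells, 8 were tested and 3 were higher, with 5.72% of all genes higher and 4.44% lower. In Treg-like cells, 5 were tested and 1 was higher, with 1.73% of all genes higher and 1.07% lower. In CD8 T-like cells, 8 were tested, 2 were higher and 2 lower, and the shares over all genes were 5.08% and 7.24%. In NK-like cells, 7 were tested, 1 was higher and 1 lower, and the shares over all genes were 2.31% and 2.2%. The median log2 change of the tested members was -0.46 in cDC2-like, -0.7 in mature DC-like, 0.32 in CD4 T-like and -0.58 in NK-like cells. The medians over all genes tested there were 0.04, 0, 0.04 and 0.02. In cDC1-like, Treg-like and CD8 T-like cells the members had medians of -0.6, 0.25 and -0.25, and all genes 0.01, 0.03 and 0.04. These medians describe the few members tested, and nothing particular to the family is read from them.

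Of the 15 members tested in C1q-high macrophage-like cells, the edgeR quasi-likelihood test called 0, with 0.138% of all genes called in either direction. There, 2 members and 1526 of all 12343 genes had an unadjusted p under 0.05. DESeq2 called 1 member, Plxna2, a receptor of class 3 and 6 semaphorins, and 384 of all genes. Monocyte-like cells had 0 calls among 9 members by edgeR and 0 by DESeq2. Over all genes, edgeR called 0.0663% and DESeq2 called 56 genes. An unadjusted p under 0.05 was found for 1 member and for 700 of all 7546 genes. Neutrophil-like cells had 0 calls among 3 members by both tools and 0 unadjusted p under 0.05. In that class edgeR called 0 of 2940 genes (0.0%), 177 genes had an unadjusted p under 0.05, and DESeq2 called 3. In mast-like cells 1 member, Nrp1, was tested and not called by either tool, with an unadjusted edgeR p of 0.0218. Over all 2245 genes tested there, 427 had an unadjusted p under 0.05, edgeR called 3.92% and DESeq2 called 71 genes.

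**Figure D2:**
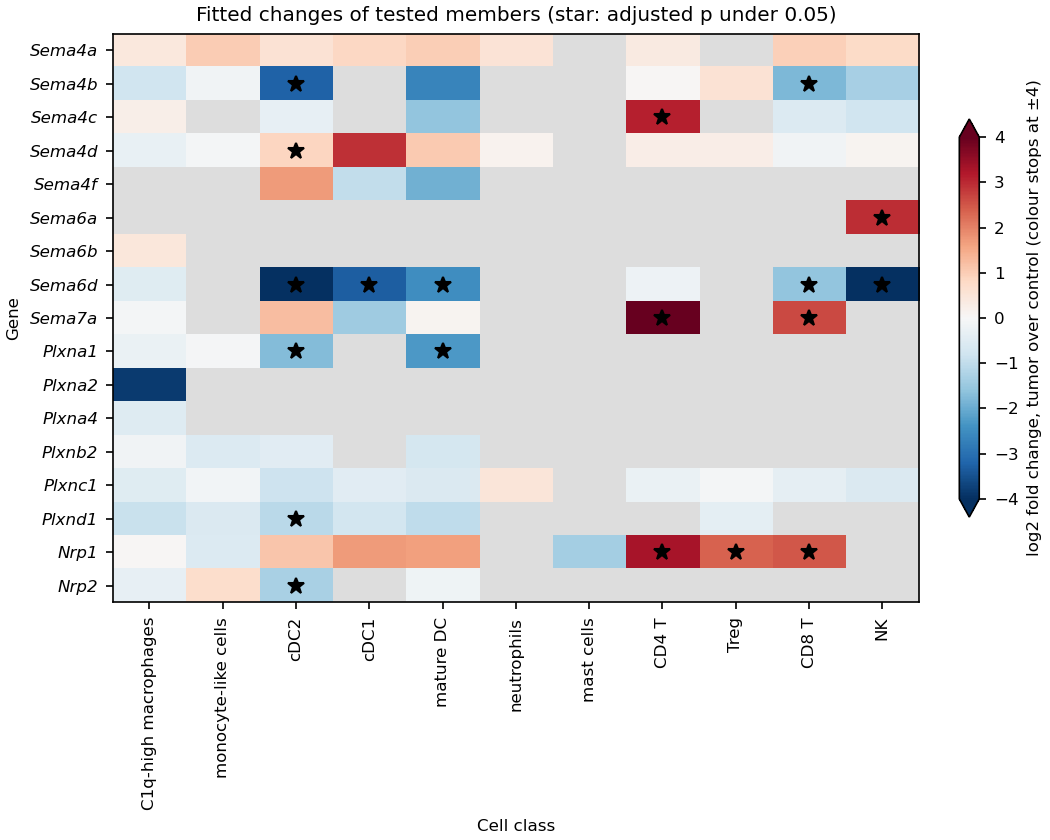
Fitted log2 change from control skin to tumor for the 17 tested members (rows) in the 11 tested classes (columns), with red for higher and blue for lower in tumor and grey for a member that did not pass the filter. Stars mark the 19 calls, which lie in the dendritic, T and NK columns, and the colour stops at 4 in either direction.

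The promoters of Nrp1, Sema7a and Sema6d are shown because these genes gave the 3 calls, described after the sequences, that were kept under every alternative processing tried. RefSeq's table for GRCm38.p6 gives 1 start each for Nrp1 and Sema7a and 2 for Sema6d, which the 3' counts cannot tell apart. Each line gives the 250 bases before a start, 5' to 3', with GC boxes (GGGCGG) and E-boxes (CANNTG) on either strand in capitals.
Nrp1, chr8:128358823-128359072, plus strand: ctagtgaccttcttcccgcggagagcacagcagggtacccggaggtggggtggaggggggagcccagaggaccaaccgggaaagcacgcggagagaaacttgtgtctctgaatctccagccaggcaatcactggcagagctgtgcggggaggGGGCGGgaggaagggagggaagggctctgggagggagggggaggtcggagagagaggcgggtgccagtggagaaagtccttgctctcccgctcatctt
Sema7a, chr9:57939862-57940111, plus strand: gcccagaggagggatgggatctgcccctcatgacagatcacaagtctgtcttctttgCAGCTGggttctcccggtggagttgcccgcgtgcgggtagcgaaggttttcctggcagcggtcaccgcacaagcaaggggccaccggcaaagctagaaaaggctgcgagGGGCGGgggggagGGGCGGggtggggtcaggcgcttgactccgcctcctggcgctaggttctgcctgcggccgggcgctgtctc
Sema6d, chr2:124089719-124089968, plus strand: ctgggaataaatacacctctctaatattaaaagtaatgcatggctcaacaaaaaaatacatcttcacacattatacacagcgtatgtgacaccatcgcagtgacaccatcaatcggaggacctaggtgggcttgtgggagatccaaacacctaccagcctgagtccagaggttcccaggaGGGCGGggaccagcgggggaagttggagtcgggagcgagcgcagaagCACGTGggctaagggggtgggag
Sema6d, chr2:124653331-124653580, plus strand: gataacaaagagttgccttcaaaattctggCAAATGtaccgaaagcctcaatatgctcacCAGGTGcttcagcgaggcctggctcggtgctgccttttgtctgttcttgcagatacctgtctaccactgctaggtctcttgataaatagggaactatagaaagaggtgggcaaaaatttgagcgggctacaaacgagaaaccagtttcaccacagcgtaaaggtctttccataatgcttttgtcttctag
The Nrp1 window holds 1 GC box and no E-box, that of Sema7a 2 GC boxes and 1 E-box. The windows of Sema6d hold 1 of each, and no GC box and 2 E-boxes. Of 32851 promoters in the table, 32.7% hold a GC box and 66.2% an E-box. None of the 4 windows holds the letters TTCNNNGAA, which interferon-activated STAT sites have (7% of all promoters), or the AP-1 letters TGANTCA (6.7%). The share of G and C was 64.4% for Nrp1, 66.4% for Sema7a and 52.4% and 45.2% for Sema6d, and the median over all promoters was 52.4%. These are matches of letters, and binding was not measured.

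Among the ligands, Sema4d had its highest level in neutrophil-like cells, at 10.1 and 6.70 UMIs per 10,000 in control skin and 8.32 and 9.97 in tumors. Monocyte-like cells came next, at 2.54 and 3.45 in control skin and 2.62 and 3.33 in tumors, and both libraries of neutrophil-like cells lay above both of monocyte-like cells in either group. In neither class did the groups separate. In cDC2-like cells Sema4d rose from 0.664 and 0.819 to 1.5 and 1.65, without overlap, a log2 change of 0.87 ± 0.22 (SE, adjusted p = 0.0441). That call was lost without control replicate 1 (adjusted p = 0.371), without control replicate 2 (0.243), with DESeq2's test (0.13) and size factors (0.0501), with adjustment over all classes together (0.0746) and without cycling cells (0.059). In cDC1-like cells Sema4d measured 0.183 and 0.276 in control skin and 1.10 and 3.18 in tumors, a log2 change of 2.93 ± 0.60 that missed the threshold in edgeR (adjusted p = 0.0575) and passed it in DESeq2 (2.85e-04). Here the groups did not overlap, and the tumor libraries differed from each other by more than the whole control level. In mature DC-like cells the log2 change of Sema4d, 1.03 ± 0.29, missed the threshold in edgeR (adjusted p = 0.091).

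Sema4a, a costimulatory class 4 semaphorin, was tested in 9 classes and called in none by edgeR, with log2 changes from 0.37 to 1.02 and adjusted p from 0.104 to 0.887. Its highest level was in mature DC-like cells, at 0.453 and 0.754 in control skin and 1.29 and 1.26 in tumors. In that class the groups did not overlap. The 9 values share the same 4 libraries and are not separate experiments. DESeq2 also called it in no class.

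Sema4b, another transmembrane ligand, fell in cDC2-like cells from 0.180 and 0.212 to 0.0173 and 0.0441, a log2 change of -3.22 ± 0.55 (adjusted p = 0.0143). Only 8 UMIs were counted in the tumor libraries together. The call was lost without control replicate 2 (adjusted p = 0.174), and the log2 change was -2.27 without tumor replicate 1. In CD8 T-like cells Sema4b fell from 0.299 and 0.272 to 0.0891 and 0.0982, a log2 change of -1.81 ± 0.41 (adjusted p = 0.022). This call was lost without tumor replicate 1 (0.159), without control replicate 1 (0.406), without cycling cells (0.165) and with DESeq2 (0.133). In Treg-like cells, where tumor levels were highest, Sema4b measured 0.598 and 0.632 in control skin and 0.871 and 0.951 in tumors, which missed the threshold (adjusted p = 0.419).

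Sema4c, a ligand of Plxnb2, was a gene of DETC-like cells in control skin, at 1.02 in both libraries, followed by NK-like cells at 0.734 and 0.812. In CD4 T-like cells it was nearly absent from control skin, with 1 and 4 UMIs (0.0141 and 0.116 per 10,000), and reached 27 and 48 UMIs in tumors (0.272 and 0.676). The groups did not overlap, and the log2 change was 3.12 ± 0.77 (adjusted p = 0.0226). The call was lost without tumor replicate 2 (log2 change 2.30, adjusted p = 0.119) and without control replicate 1 (1.99, adjusted p = 0.174), and the log2 change was 4.73 without control replicate 2. The ratio of pooled levels was 9.27, with a counting interval of 3.8 to 29.4. In CD8 T-like cells Sema4c measured 0.139 and 0.233 in control skin and 0.111 and 0.196 in tumors, and the groups overlapped.

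Sema4f was highest in cDC1-like and Langerhans-like cells of control skin, at 0.548 and 0.789 and at 0.589 and 0.563. It was tested in 3 classes, all dendritic, and called in none by edgeR or DESeq2, with log2 changes from -1.94 to 1.72. Sema6b was tested in C1q-high macrophage-like cells alone (log2 change 0.47, adjusted p = 0.898), and its highest level in a class, 0.319 in neutrophil-like cells of control replicate 1, came from 2 UMIs.

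Sema6d, the ligand of Plxna1, was the member called in the most classes, 5. Over all used cells its level was 2.11 and 1.81 UMIs per 10,000 in control skin and 0.244 and 0.231 in tumors, a pooled ratio of 8.15 between control and tumor. The highest levels were in control lymphocytes. DETC-like cells held 3.81 and 3.64, NK-like cells 3.02 and 3.91, CD8 T-like cells 2.20 and 3.92, IL-17 type γδ T-like cells 3.24 and 1.78, and ILC2-like cells 2.49 and 2.99, and the ranges of these classes overlap in part. Mature DC-like cells of control skin held 2.64 and 1.07. Monocyte-like and neutrophil-like cells of the same libraries held at most 0.0414. The level over all cells also moves with the number of DETC-like cells, so the comparison was made within classes. A gate does not fix the mix of cells within a class. In NK-like cells Itga1 also fell (log2 change -2.83), and whether the kinds of NK-like cell differed between groups was not tested.

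In NK-like cells, which express the receptor gene Ncr1 and by their gate no CD3 gene, Sema6d fell from 3.02 and 3.91 to 0.186 and 0.252. The groups did not overlap, and the log2 change was -4.0 ± 0.31 (adjusted p = 2.58e-05), a pooled ratio of 16.0 between control and tumor. This call was kept under each of the 15 alternatives tried, though leaving out mature DC-like cells with Cd207 does not change NK-like cells. It rests on 140 and 101 UMIs from 21 of 33 and 9 of 17 cells in control skin, and on 16 and 11 UMIs in tumors. After thinning each cell to 2000 UMIs, Sema6d was found in 33.3% and 29.4% of NK-like cells in control skin and in 2.27% and 4.0% in tumors. In monocyte-like cells the share was 0 of 20 and 0 of 97 cells in control skin after the same thinning.

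Since DETC-like cells were common in control skin and rare in tumors, their delta receptor gene Trdc was read beside Sema6d. In NK-like cells of control skin Trdc stood at 0.130 and 0.0387, against 24.4 and 23.8 in DETC-like cells. At the ratio of Sema6d to Trdc that DETC-like cells have, this would carry 0.671% and 0.151% of the Sema6d of NK-like cells. For CD8 T-like cells the same share was 0.296% and 0.0756%. The gates of NK-like and CD8 T-like cells limit Trdc, and the DETC-like gate requires it. The shares of these classes were thus low by design and give no bound on DETC RNA. For cDC2-like cells the share was 26.3% in control replicate 1 and 4.82% in control replicate 2. For cDC1-like cells it was 3.91% and 3.32%, and for mature DC-like cells 0.26% and 0.9%. The dendritic gates limit CD3 genes, so these shares give no bound on DETC RNA either. Without cells holding a UMI of Trdc or Tcrg-C1, NK-like cells held 2.97 and 4.06 of Sema6d in control skin and 0.190 and 0.310 in tumors.

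In CD8 T-like cells Sema6d fell from 2.20 and 3.92 to 0.930 and 1.40, a log2 change of -1.58 ± 0.31 (adjusted p = 0.0104), again without overlap. Without cycling cells, which have 2 or more UMIs of Mki67 and Top2a together, the levels were 2.33 and 4.09 in control skin and 0.929 and 2.36 in tumors, where 98 of 246 and 18 of 30 cells were kept, and the call was lost (log2 change -1.19, adjusted p = 0.0721). CD4 T-like cells held 0.649 and 1.46 of Sema6d in control skin and 0.584 and 1.21 in tumors, and Treg-like cells 0.427 and 0 in control skin and 0.309 and 0.308 in tumors. In both the groups overlapped, and the change differed between CD8 T-like and CD4 T-like cells by -1.19 ± 0.30 on the log2 scale (adjusted p = 0.0321). This difference was lost without tumor replicate 2 (0.233), without control replicate 1 (0.108) and without cycling cells (0.692).

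**Figure D3:**
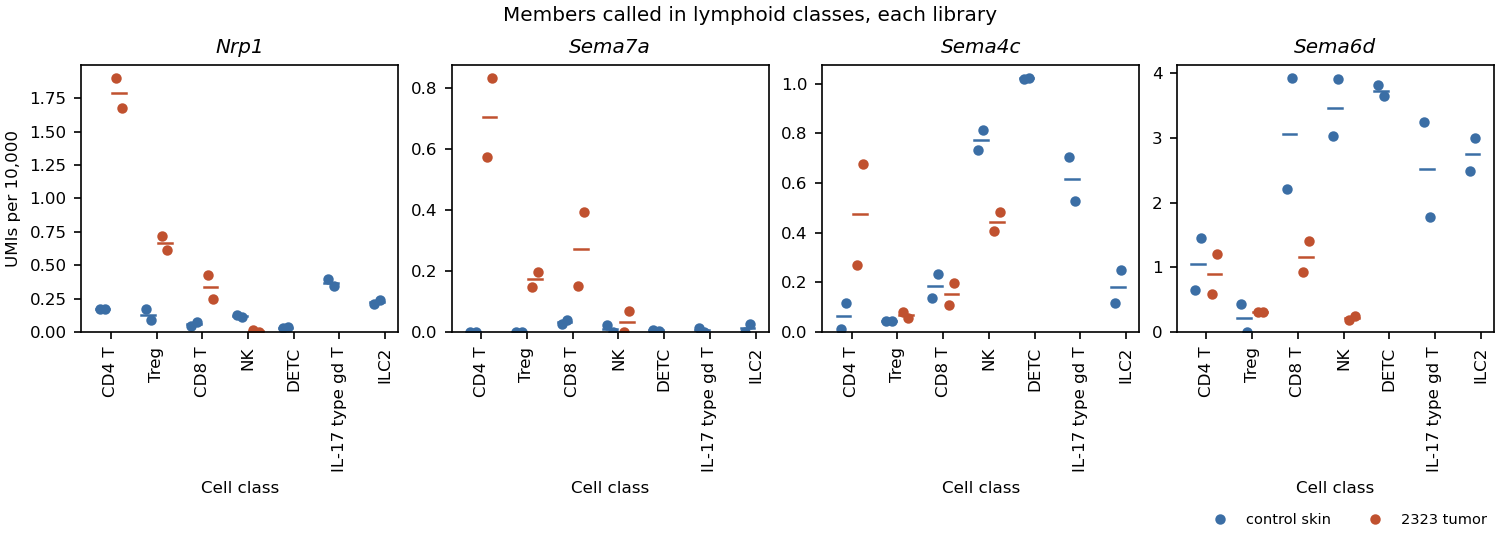
Levels of Nrp1, Sema7a, Sema4c and Sema6d, in UMIs per 10,000 on separate linear axes, in the lymphoid classes, with 1 point per library and a line at the mean of 2 libraries. Tumor points of CD4 T-like cells lie above control for Nrp1, Sema7a and Sema4c, tumor points of NK-like and CD8 T-like cells lie below control for Sema6d, and the last 3 classes have control points only.

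Sema6d was also lower in the dendritic classes. It fell from 0.172 and 0.499 to 0.0208 and 0.0147 in cDC2-like cells, a log2 change of -4.31 ± 0.69 (adjusted p = 0.0118). The tumor libraries held 6 UMIs and 1 UMI, and 1 cell of control replicate 2 gave 28 of its 92 UMIs. Without control replicate 2 the call was lost (log2 change -3.38, adjusted p = 0.143). In cDC1-like cells the level fell from 0.366 and 0.454 to 0.0501 and 0.0365, a log2 change of -3.31 ± 0.48 (adjusted p = 0.0288), lost without control replicate 1 (0.081) and without control replicate 2 (0.237). C1q-high macrophage-like cells held 0.188 and 0.155 in control skin and 0.186 and 0.0900 in tumors, with overlap. The change in cDC2-like cells differed from that in C1q-high macrophage-like cells by -4.05 ± 0.75 (adjusted p = 0.0443), and this call was lost without tumor replicate 1 (0.271), without control replicate 2 (0.158), with stricter gates (0.0669) and without the mitochondrial filter (0.0555).

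In mature DC-like cells, which express Ccr7, Sema6d measured 2.64 and 1.07 in control skin and 0.196 and 0.556 in tumors, a log2 change of -2.48 ± 0.54 (adjusted p = 0.0398). The cells of this gate differed between groups in Cd207, the langerin gene of Langerhans cells, at 28.7 and 20.3 in control skin and 0 in both tumor libraries. Of the 26 and 18 control cells, 6 and 7 had under 2 Cd207 UMIs. Those few cells held 6.14 and 0.117 of Sema6d, and the log2 change was then -3.16 with an adjusted p of 0.444. A single cell gave 73 of the 181 UMIs of control replicate 1, and without that library the call was lost (log2 change -1.73, adjusted p = 0.1). It was also lost with stricter gates (0.114), without doublet removal (0.0502) and without cycling cells (0.0546), and the log2 change was -3.28 without tumor replicate 2.

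Sema6a, a ligand of Plxna2 and Plxna4, was tested in NK-like cells alone and rose there from 0.151 and 0 to 0.953 and 0.459. Control skin had 7 UMIs in 3 cells of replicate 1 and none in the 17 cells of replicate 2, and tumors had 82 and 20 UMIs. The groups did not overlap, and the log2 change was 2.94 ± 0.66 (adjusted p = 0.0249), lost without tumor replicate 1 (0.334), without cycling cells (0.163), with stricter gates (0.222) and without cells holding Trdc or Tcrg-C1 (0.0558). Without control replicate 2 the log2 change was 2.25, and without control replicate 1, where no control UMI is left, a fitted value of 8.27 gives no bound. The pooled ratio was 8.11, with a counting interval of 3.8 to 20.7.

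Sema7a had its highest level in mature DC-like cells, at 1.72 and 1.32 in control skin and 2.00 and 1.55 in tumors, with overlap. Langerhans-like cells of control skin held 1.12 and 1.02. In CD4 T-like cells no UMI was counted in the 66 and 34 cells of control skin, and 57 and 59 UMIs were counted in the 104 and 78 cells of tumors (0.574 and 0.831 per 10,000). Against a floor of 3 counts over both control libraries, Sema7a was at least 23.9-fold higher in tumors, with an adjusted p of 0.000543. The call was kept under each of the 15 alternatives tried. Those that leave out some mature DC-like or NK-like cells do not change CD4 T-like cells.

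The UMIs came from 24 and 33 tumor cells, and the cell with most gave 13 of 57 and 5 of 59. After thinning, 6.80% and 12.8% of tumor CD4 T-like cells had a UMI of Sema7a, and 0 of 457 and 0 of 563 DETC-like cells of control skin. Fscn1, a gene of mature DC-like cells, stood at 0 and 0.0141 in tumor CD4 T-like cells. At the ratio in mature DC-like cells this carries 0% and 0.624% of their Sema7a. The mature DC-like gate draws on Fscn1 and requires H2-Ab1, which the T cell gates limit. This share was thus low in part by design and gives no bound on mature DC RNA. In CD8 T-like cells Sema7a rose from 0.0278 and 0.0388 to 0.149 and 0.393, a log2 change of 2.66 ± 0.70 (adjusted p = 0.0388). With 4 and 2 UMIs in control skin, the pooled ratio of 5.57 has a counting interval of 2.45 to 15.6. That call was lost without control replicate 1 (0.311), without control replicate 2 (0.0576) and without tumor replicate 2 (0.061), without cycling cells (0.0572), with DESeq2 (0.06) and with adjustment over all classes together (0.0688). Without tumor replicate 1 the log2 change was 3.45. Treg-like cells had no UMI in control skin and 0.149 and 0.196 in tumors, and Sema7a was not tested there.

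The coreceptor Nrp1 was called higher in the 3 αβ T cell classes. In CD8 T-like cells without cycling cells, only tumor replicate 1 stood clearly above both control libraries. In the 3 dendritic classes the tumor levels of Nrp1 also lay above control without passing the test. In CD4 T-like cells, which by their gate hold no UMI of Foxp3 or Cd8a, it went from 0.169 and 0.175 to 1.90 and 1.68. The tumor libraries lay far above the control libraries, and the log2 change was 3.31 ± 0.31 (adjusted p = 0.000136), a pooled ratio of 10.6 with a counting interval of 6.58 to 18.1. The call was kept under each of the 15 alternatives, between 3.22 and 3.41. Those that leave out some mature DC-like or NK-like cells do not change this class. A UMI of Nrp1 was found in 6.06% and 2.94% of thinned cells in control skin and in 22.3% and 25.6% in tumors, and at full depth in 51.0% and 52.6% of tumor cells. In tumor NK-like cells the thinned share was 0 of 88 and 0 of 50 cells.

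C1qa, a macrophage gene, stood at 0.181 and 0.155 in tumor CD4 T-like cells against 30.4 and 20.9 in C1q-high macrophage-like cells. At the ratio of Nrp1 to C1qa in those macrophages, this carries 0.509% and 0.451% of the Nrp1 of CD4 T-like cells. The T cell gates limit C1q genes and the macrophage gate requires them. This share was thus low by design and gives no bound on macrophage RNA. In tumors, CD4 T-like cells had the highest Nrp1 level of the 11 classes with at least 10 cells in each library. They lay above C1q-high macrophage-like cells, at 1.63 and 1.02, in both libraries. In control skin the order began with mast-like cells at 1.64 and 2.59 and C1q-high macrophage-like cells at 0.955 and 1.28. Mast-like cells of tumors held 0.796 and 0.591 of Nrp1, without overlap, and the log2 change of -1.37 missed the threshold (adjusted p = 0.178).

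In Treg-like cells, gated on Foxp3, Nrp1 rose from 0.171 and 0.0903 to 0.722 and 0.616, a log2 change of 2.37 ± 0.52 (adjusted p = 0.0475). Control skin had 4 and 2 UMIs in 25 cells of each library, and 1 cell gave 28 of 63 UMIs in tumor replicate 1 and 13 of 22 in tumor replicate 2. Without that cell the tumor levels were 0.408 and 0.275. The call was lost without tumor replicate 1 (adjusted p = 0.33), without control replicate 1 (0.0549) and without control replicate 2 (0.132), with stricter gates (0.26), and with DESeq2's test (0.21) and size factors (0.0531). In CD8 T-like cells Nrp1 rose from 0.0486 and 0.0777 to 0.429 and 0.245, a log2 change of 2.49 ± 0.49 (adjusted p = 0.0119). The call was lost without tumor replicate 1 (log2 change 1.9) and without control replicate 1. Without cycling cells, the levels were 0.0218 and 0.111 in control skin (2 and 4 UMIs). In tumors they were then 0.538 and 0.115 (55 and 2 UMIs), so tumor replicate 2 lay close to control replicate 2.

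Among dendritic classes, Nrp1 measured 0.367 and 0.179 in control cDC2-like cells and 0.790 and 0.500 in tumor ones, a log2 change of 1.10 ± 0.39 (adjusted p = 0.113). In cDC1-like cells it measured 0.335 and 0.138 in control skin and 0.781 and 0.932 in tumors, a log2 change of 1.71 ± 0.46 (adjusted p = 0.104). In mature DC-like cells it measured 0.117 and 0.147 in control skin and 0.371 and 0.526 in tumors, a log2 change of 1.64 ± 0.45 (adjusted p = 0.0792). The groups did not overlap in any of the 3 classes, and whether these changes differ from those in T cells was not tested.

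NK-like cells held Nrp1 at 0.130 and 0.116 (6 and 3 UMIs) in control skin and at 0.0116 and 0 (1 UMI and none) in tumors, too few to be tested alone. Nrp1 entered the comparison of NK-like with CD8 T-like cells through the 188 tumor UMIs of CD8 T-like cells. Its difference passed there (adjusted p = 0.0317) and was lost without tumor replicate 1 (0.571), without control replicate 1 (0.116), with stricter gates (0.0565) and without NK-like cells holding Trdc or Tcrg-C1 (0.108).

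Over the 6 pairs of classes that could be compared, 5 differences of a member passed. In the pair of CD8 T-like and CD4 T-like cells, 2 of 8 members passed, Sema4c and Sema6d, with 2.94% of all genes. In the pair of NK-like and CD8 T-like cells, 2 of 8 passed, Sema6d and Nrp1, the latter on 9 and 1 UMIs in NK-like cells, with 1.94% of all genes. In cDC2-like against C1q-high macrophage-like cells, 1 of 15 passed, Sema6d, with 2.01%. In mature DC-like against cDC2-like cells, monocyte-like against C1q-high macrophage-like cells and Treg-like against CD4 T-like cells, edgeR called 0 of 14, 0 of 13 and 0 of 9 members, with 1.76%, 0.238% and 1.79% of all genes, and 3, 1 and 2 members had an unadjusted p under 0.05. Genes at an unadjusted p under 0.05 were not counted over all genes for the pairs, so nothing is read from these unadjusted counts. DESeq2's test was not run on differences between classes. The change of Sema4c in CD8 T-like cells was lower than in CD4 T-like cells by 3.36 ± 0.77 on the log2 scale (adjusted p = 0.0158). This call was lost without tumor replicate 2 (0.0891), without control replicate 1 (0.0981) and without cycling cells (0.179). The change of Sema6d in NK-like cells was below that in CD8 T-like cells by 2.52 ± 0.36 (adjusted p = 0.0151), lost without tumor replicate 1 (0.126).

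Among the receptors, Plxnc1, which binds Sema7a, was the most widespread. Its highest levels were in Langerhans-like cells, at 5.50 and 5.29, and mature DC-like cells, at 5.40 and 5.30 in control skin and 3.66 and 4.09 in tumors. In control skin these classes overlapped. Without cells of 2 or more Cd207 UMIs, mature DC-like cells held 3.53 and 4.56 in control skin and 3.66 and 4.09 in tumors, with overlap. cDC2-like cells held 2.37 and 1.97 in control skin and 1.65 and 1.15 in tumors. Plxnc1 was tested in 10 classes and called in none by edgeR, with adjusted p from 0.0636 to 0.947 and log2 changes from -0.83 to 0.49, and DESeq2 called it in none.

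Plxna1, the receptor of Sema6d, was highest in Langerhans-like cells, at 0.731 and 0.658. In cDC2-like cells it fell from 0.211 and 0.239 to 0.0728 and 0.0883, a log2 change of -1.75 ± 0.38 (adjusted p = 0.0297), without overlap. The call was lost without control replicate 1 (0.11), control replicate 2 (0.219) and tumor replicate 1 (0.0683), without cycling cells (0.0507) and with DESeq2 (0.13). In mature DC-like cells Plxna1 fell from 0.482 and 0.356 to 0.103 and 0.0751, a log2 change of -2.30 ± 0.46 (adjusted p = 0.0295). All of its 33 and 17 control UMIs came from cells with 2 or more Cd207 UMIs, since the 6 and 7 other cells held 0, and the call was lost without control replicate 1 (0.17) and without control replicate 2 (0.0797), without cycling cells (0.145) and with DESeq2 (0.0802). In C1q-high macrophage-like cells Plxna1 measured 0.230 and 0.178 in control skin and 0.138 and 0.237 in tumors, with overlap.

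Plxnd1, the receptor of Sema3e, was highest in mature DC-like cells, at 1.12 and 1.82 in control skin and 0.813 and 0.736 in tumors, where the difference missed the threshold (adjusted p = 0.123). In cDC2-like cells it fell from 0.640 and 0.624 to 0.308 and 0.397, a log2 change of -1.09 ± 0.26 (adjusted p = 0.0367). The groups did not overlap, and the call was lost without control replicate 1 (0.207), control replicate 2 (0.216) and tumor replicate 1 (0.0875), with DESeq2 (0.132) and with adjustment over all classes together (0.0626). Plxna4, a receptor of Sema3a and Sema6a, stood at 0.140 and 0.164 in C1q-high macrophage-like cells of control skin and at 0.140 and 0.102 in those of tumors. In mature DC-like cells, where Plxna4 was not tested, it stood at 0 and 0.0629 in control skin (3 UMIs) and at 0.113 and 0.0902 in tumors (17 UMIs), a pooled ratio of 4.02 with a counting interval of 1.16 to 21.4. Plxna2 stood in C1q-high macrophage-like cells at 0.0349 and 0.0305 in control skin and at 0.00291 and 0.00196 in tumors, without overlap, and was called by DESeq2 (0.00911) and not by edgeR (log2 change -3.84, adjusted p = 0.123). Plxnb2, the receptor of Sema4c, was highest in monocyte-like and C1q-high macrophage-like cells, at 0.782 and 0.692 and at 0.551 and 0.752 in control skin. The means of the tumor libraries were 0.526 and 0.674 in these classes. No edgeR or DESeq2 call was made in the 4 classes where Plxnb2 was tested.

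Nrp2, the coreceptor of Sema3f and of VEGF-C, was highest in mature DC-like cells, at 1.74 and 1.55 in control skin and 1.28 and 1.89 in tumors. C1q-high macrophage-like cells held 1.08 and 1.37 and then 0.899 and 1.30. In both classes the groups overlapped. Without cells of 2 or more Cd207 UMIs, mature DC-like cells held 3.30 and 2.10 in control skin and 1.28 and 1.89 in tumors, without overlap. Only 6 and 7 control cells were left there, and edgeR called 0 of 5076 genes. In cDC2-like cells Nrp2 fell from 1.18 and 1.17 to 0.499 and 0.633, without overlap, a log2 change of -1.29 ± 0.23 (adjusted p = 0.0175). The call was lost without control replicate 1 (0.102) and control replicate 2 (0.137). In tumor replicate 2, 1 cell gave 19 of 43 UMIs.

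**Figure D4:**
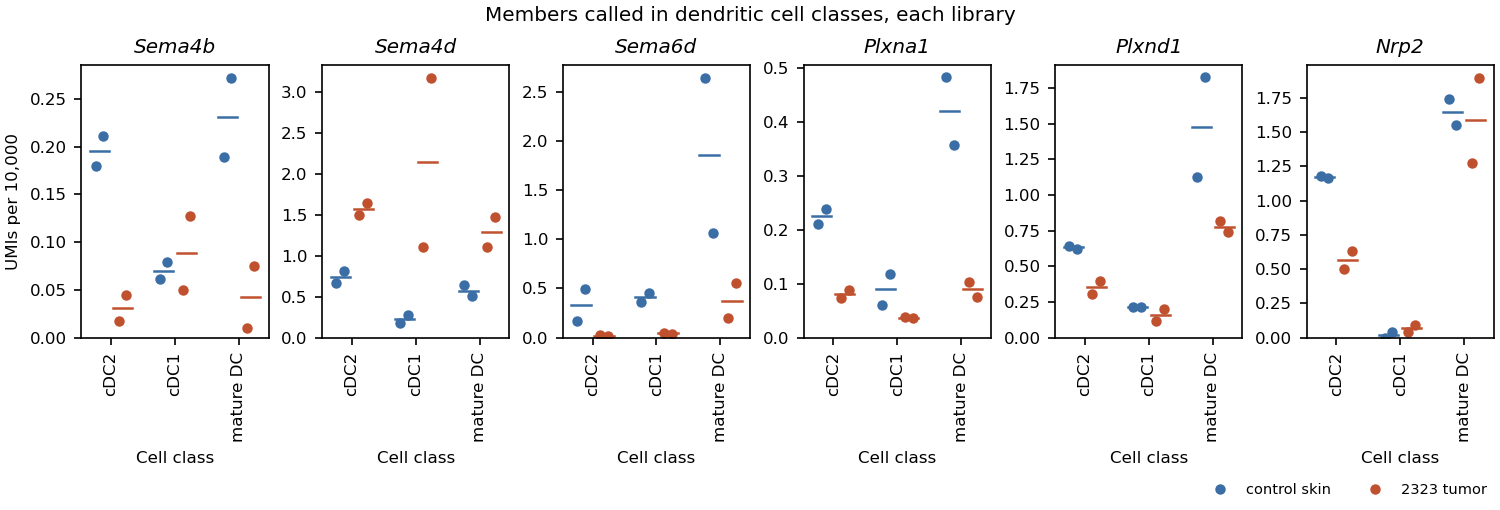
Levels of the 6 members called in dendritic classes, in UMIs per 10,000 on separate linear axes, with 1 point per library and a line at the mean of 2 libraries. In cDC2-like cells the tumor points lie below control for Sema4b, Sema6d, Plxna1, Plxnd1 and Nrp2 and above control for Sema4d, and for Nrp2 the groups overlap in mature DC-like cells.

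The cDC2-like class of control replicate 1 also held more Cd207, which stood at 3.18 and 0.461 in control skin and 0.0139 and 0 in tumors. Plxna1 and Sema6d are also genes of Langerhans-like cells, in which Sema6d stood at 0.852 and 0.877. Whether Langerhans RNA had a part in the cDC2-like changes was not tested. C1q genes were limited by the gate, and C1qa stood at 0.0468 to 0.147 in the cDC2-like libraries.

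A list of 44 other genes of the pathway was read beside the members: other receptors, neuropilin ligands, plexin effectors and proteases that process semaphorins. Of these, 42 were tested in at least 1 class, and 24 of 301 tests gave a call, 4 higher and 20 lower. Itga1, which with Itgb1 makes a Sema7a receptor, fell in cDC2-like (log2 change -2.82), cDC1-like (-2.72), CD4 T-like (-2.25), CD8 T-like (-2.72) and NK-like cells (-2.83). Furin, a protease that cleaves class 3 semaphorins, fell in cDC2-like (-2.77), cDC1-like (-2.46), CD8 T-like (-1.79) and NK-like cells (-1.99) and rose in mast-like cells (2.30). Farp1, a plexin effector, rose in CD4 T-like (1.5) and CD8 T-like cells (1.37). Arhgef12, another plexin effector, fell in cDC2-like (-3.24) and mature DC-like cells (-3.03), and the neuropilin ligand Vegfa fell in mature DC-like (-1.44) and CD4 T-like cells (-2.43). Mature DC-like cells of control skin held Cd207 and those of tumors did not. Without cells of 2 or more Cd207 UMIs, 6 and 7 control cells were left, and edgeR called 0 of 5076 genes in that class. In cDC2-like cells, 0 of 35 list genes were higher and 6 lower, where 4.88% and 6.84% of all genes tested were. In cDC1-like cells it was 0 and 2 of 28, against 0.602% and 1.4%, and in mature DC-like cells 0 and 3 of 30, against 2.7% and 3.4%. In CD4 T-like cells, 2 of 27 were higher and 3 lower, against 5.72% and 4.44%, and in CD8 T-like cells 1 and 4 of 27, against 5.08% and 7.24%. In NK-like cells it was 0 and 2 of 26, against 2.31% and 2.2%, and in mast-like cells 1 of 17 was called, against 3.92%. DESeq2 called 5 list genes in cDC2-like, 3 in cDC1-like and 4 in mature DC-like cells. Over all genes it called 693 of 8571, 198 of 6146 and 354 of 6438 there. It called 1 list gene in CD4 T-like, 3 in CD8 T-like, 2 in NK-like and 1 in mast-like cells. In these classes it called 409 of 7118, 577 of 7791, 120 of 5632 and 71 of 2245 of all genes. No list gene was called by edgeR among 41 in C1q-high macrophage-like, 32 in monocyte-like, 17 in neutrophil-like and 21 in Treg-like cells. Of these, 5, 3, 0 and 4 had an unadjusted p under 0.05, and DESeq2 called 2, 0, 0 and 0. Over all genes, 1526 of 12343, 700 of 7546, 177 of 2940 and 780 of 4751 had such an unadjusted p. DESeq2 called 384, 56, 3 and 83 of all genes. The median log2 change of the list was -0.34 in cDC2-like, 0.03 in CD4 T-like, -0.19 in CD8 T-like and -0.08 in NK-like cells, where the medians over all genes were 0.04, 0.04, 0.04 and 0.02. These counts and medians describe the list, and nothing particular to it is read from them.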

How the data were processed

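For each library the authors deposited the UMI count of every gene in every called cell, with no normalization or pooling. The labels name Cell Ranger 7.1.0 and the file headers 7.0.1, and the handling of intronic reads is not given in the sources used here. Quality limits were 100 detected genes, 1000 UMIs, a mitochondrial share of 15% and a complexity (log10 of genes divided by log10 of UMIs) of 0.8. A doublet score was computed from simulated doublets, and the highest-scoring cells, 1% for each 1000 cells in a library, were left out (40 to 229 cells). Median depth was 10270 to 13135 UMIs per used cell.

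Cells were put into classes by gates on UMIs of marker genes. The gate thresholds were set after the counts had been seen, and 97 to 316 ungated cells per library had C1q genes between the limits of 2 and 5 per 10,000. Where all libraries held 10 or more cells of a class, their UMIs were added up and the 4 sums compared in edgeR 4.0.16, R 4.3.3 (quasi-likelihood test, TMM factors, filterByExpr, Benjamini-Hochberg adjustment over all genes tested in a class, threshold 0.05). A lower minimum was used for mature DC-like cells without those of 2 or more Cd207 UMIs, fitted with 6 and 7 control cells. The SE is the absolute log2 change over the square root of F. Differences between classes were tested as an interaction with the library as a term. DESeq2 1.42.0 was an alternative. Scripts used Python with scipy and were tested on simulated data. The smallest p that 2 samples against 2 allow in an exact permutation test is 0.333. Counting intervals are exact at 95% and cover counting error only.

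All members of the rule are covered. Those called in a class or at 1 or more UMIs per 10,000 in both libraries of a group have library values for the classes named. Their other classes and the other members are mostly given by counts and ranges. The members and lists were chosen with earlier results of these data known. The labels call the samples replicates, and whether each library is 1 mouse is not stated. The p-values thus rest on the spread between these samples. In the fits, the variance of each gene is drawn toward that of the other genes tested. Promoter positions are those of GRCm38.p6. A further allele of the tumor line is not reported here.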

Additional observations from a re-analysis of the deposited data

Results flagged for a closer look

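The change between control skin and tumor differed between 2 cell classes for 5 pairs of a member and classes, each with an adjusted p under 0.05 in the interaction test. The difference of the log2 changes was -3.36 for Sema4c in CD8 T-like against CD4 T-like cells and -1.19 for Sema6d in the same pair. It was -4.05 for Sema6d in cDC2-like against C1q-high macrophage-like cells. For NK-like against CD8 T-like cells it was -2.52 for Sema6d and -6.37 for Nrp1, and the last is a fitted value from 9 control and 1 tumor UMIs of NK-like cells and gives no bound.

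Plxnd1 appeared in the few non-immune cells of the sort, which no comparison uses. It stood at 0.0807 and 0.133 UMIs per 10,000 in control skin and at 0.477 and 0.464 in tumors. All members were read in these cells. Plxnd1 was picked because its 95% counting intervals in tumors lay above those in control skin, so this separation is not a test. These cells were gated on keratin or collagen genes, so their kinds may differ between groups, which was not tested. Keratin genes summed to 95.4 and 146.7 per 10,000 in those of control skin. The collagen list, which also holds Dcn and Lum, summed to 24.0 and 24.6 in those of tumors.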

How the results depend on the processing

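Of the 19 calls of a member in a class, 3 were kept under every alternative run (Sema7a and Nrp1 in CD4 T-like cells and Sema6d in NK-like cells), 16 were lost under at least 1, and 0 reversed. The 8 higher and 11 lower calls became 16 and 18 with no filter on low counts and 4 and 6 without cycling cells. In the latter setting cDC1-like cells were too few to be tested. Leaving out 1 library gave 4 to 10 higher and 4 to 15 lower calls, with the lowest counts, 4 and 5, and 5 and 4, without control replicate 1 and control replicate 2. The 5 differences between classes became 10 with no filter on low counts, 3 with stricter gates and 2 without cycling cells, and 2 to 4 without 1 library. With the replicate number as a block, 10 higher and 11 lower calls were made, and the call of Sema6d in cDC1-like cells was lost. Same-numbered libraries deviated with a correlation over genes of -0.033 to 0.121 over the 11 classes, so the numbers were not taken as pairs. The settings that leave out mature DC-like cells with Cd207 and NK-like cells with Trdc or Tcrg-C1 were chosen after seeing the data, and the first left Plxna1 untested because its control cells held no UMI. Each changes the cells of its own class alone, so calls in other classes could not be lost there. Over all genes, calls also rose in every tested class with no filter on low counts. In cDC2-like cells, all-gene calls fell without control replicate 1 and without control replicate 2. They rose there without either tumor library. The losses of member calls in cDC2-like cells without a control library are thus not read as particular to each gene. Without cycling cells, all-gene calls in CD8 T-like cells went from 396 higher and 564 lower of 7791 to 248 and 251 of 6457. In C1q-high macrophage-like cells they went from 10 and 7 to 24 and 17. The planned pair of ILC2-like and CD4 T-like cells could not be fitted, with 3 and 5 ILC2-like cells in tumors. The causes of these losses were not tested. Classes with as few as 13 cells in a control library and members of under 10 UMIs in a group limit what could be detected.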

Other observations

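Secreted and class 5 semaphorins, which no tested class held in number, were found in the 21 to 71 non-immune cells per library. Sema3c stood there at 1.59 and 3.02 UMIs per 10,000 in control skin, where these cells express keratin genes, and at 0.707 and 0.326 in tumors, where they express collagen genes. Sema3d measured 0.377 and 1.14 in control skin and 0.177 and 0.0816 in tumors. Sema5a measured 0.968 and 0.493 in control skin and 1.26 and 1.05 in tumors. Among these cells Sema3a was found in tumor replicate 2 alone, with 50 UMIs.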
